A study of Mus musculus with 8 samples.

Results

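The glutathione peroxidases Gpx1 to Gpx8 were compared between pancreatic islets of mice on normal chow (NC) and on high fat diet (HF). All probe sets annotated to exactly 1 of the 8 genes were taken, which gave 9 of the 45101 probe sets of the array, 2 for Gpx4 and 1 for each other gene. Each sample was islet RNA of male C57Bl/6J mice, and the islets of 2 mice were pooled for each of the 4 NC and 4 HF samples, so that n counts pools. The diets started at 4 weeks of age. HF provided 45 kcal% fat and NC 4 kcal%. Feeding lasted 12 weeks by the sample labels and 14 weeks by the study's methods. All mice, NC included, belong to a substrain with a natural deletion in Nnt, the nicotinamide nucleotide transhydrogenase that makes NADPH in mitochondria, and the study has no mice with an intact Nnt. The islets were freed with collagenase and picked by hand. Values are GCRMA intensities, which are adjusted for background and comparable between samples for 1 probe set but not between probe sets. A probe set was called higher or lower in HF at an adjusted p under 0.05 (limma, Benjamini-Hochberg over all retained probe sets) with a fold change of at least 1.5. Values after ± are SDs over the 4 samples of a diet.

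Glutathione peroxidases reduce hydrogen peroxide and lipid hydroperoxides with electrons from reduced glutathione, which glutathione reductase restores at the cost of NADPH. Some of the family carry selenocysteine in the active site, among them Gpx1, Gpx2, Gpx3 and Gpx4, and Gpx7 and Gpx8 use cysteine. Beta cells are known for low levels of peroxide-removing enzymes in comparison with liver.

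In HF islets Gpx2 was the glutathione peroxidase that rose and Gpx8 the one that fell. Gpx3 was lower in every HF sample, by less than the fold limit. The probe sets of Gpx1 and Gpx4 differed by little, and Gpx5, Gpx6 and Gpx7 had intensities under the filter on low values. Of the 9 probe sets 6 passed that filter (a third-highest intensity over the 8 samples of at least 8.82), and of these 1 was called higher and 1 lower. Over all retained probe sets 0.644% were called higher and 3.06% lower.

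RefSeq (GRCm38.p6) places Gpx2 on chromosome 12 from 76792335 to 76795554, Gpx3 on chromosome 11 from 54902854 to 54910387 and Gpx8 on chromosome 13 from 113042757 to 113046430. Gpx5 and Gpx6 lie side by side on chromosome 13, and Gpx1, Gpx4 and Gpx7 are on chromosomes 9, 10 and 4. The 250 bases before the annotated start are given here for Gpx2, Gpx3 and Gpx8, the members with an adjusted p under 0.05 in limma. They are printed as RefSeq has them, from 5′ to 3′ on the strand of the gene, with matches to the motifs named next in capitals. For Gpx8 the start used in the promoter table lies inside the full span of the gene, so that its window overlaps the span.
Gpx2, chr12:76795555-76795804, minus strand: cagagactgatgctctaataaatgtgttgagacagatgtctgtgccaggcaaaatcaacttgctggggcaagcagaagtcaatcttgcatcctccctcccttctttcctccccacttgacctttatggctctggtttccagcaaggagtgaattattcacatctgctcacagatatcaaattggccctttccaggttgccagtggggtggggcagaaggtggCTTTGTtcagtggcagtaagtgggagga
Gpx3, chr11:54902604-54902853, plus strand: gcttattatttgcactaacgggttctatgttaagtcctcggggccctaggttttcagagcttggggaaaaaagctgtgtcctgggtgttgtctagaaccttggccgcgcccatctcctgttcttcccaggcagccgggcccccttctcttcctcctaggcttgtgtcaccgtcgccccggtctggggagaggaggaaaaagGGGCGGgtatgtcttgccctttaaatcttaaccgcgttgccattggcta
Gpx8, chr13:113046389-113046638, minus strand: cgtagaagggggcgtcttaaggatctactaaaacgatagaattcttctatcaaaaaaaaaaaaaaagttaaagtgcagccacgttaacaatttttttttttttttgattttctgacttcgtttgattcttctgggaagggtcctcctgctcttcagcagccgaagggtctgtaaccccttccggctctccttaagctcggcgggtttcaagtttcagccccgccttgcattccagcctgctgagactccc

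Both strands of these windows were searched for the core of the antioxidant response element (TGACNNNGC), to which NRF2 binds, the AP-1 site (TGANTCA), the TATA box (TATAAA), the GC box (GGGCGG) and 2 forms of the TCF/LEF site of Wnt signalling (CTTTGA and CTTTGT). The first 2 motifs can overlap. The window of Gpx2 holds CTTTGT, starting 28 bases before the start, a motif in 16.5% of 32851 such windows of all genes. The window of Gpx3 holds a GC box 49 bases before the start, a motif in 32.7% of windows, and that of Gpx8 holds none of the 6. The antioxidant response core is in none of the 11 windows of the 8 genes (Gpx4 has 4) and in 10.2% of all windows. These letters may occur elsewhere in the genes, and a match is not a measured site.

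Gpx2 encodes the gastrointestinal glutathione peroxidase, an enzyme of the cytosol that is abundant in gut epithelium. Its intensity was 265, 246, 278 and 278 in NC replicates 1, 2, 4 and 5, and 528, 544, 449.7 and 524 in HF replicates 21, 22, 23 and 24. Each HF value lay above each NC value, and replicate 23 was the lowest of the HF samples. Gpx2 averaged 267 ± 15.0 on NC and 511 ± 42.0 on HF (n = 4 per diet). The log2 difference was 0.94 (standard error 0.08, adjusted p = 0.000982), a fold change of 1.92 with a 95% interval from 1.70 to 2.16. The exact two-sided permutation p was 0.0286, the smallest that the 70 arrangements of 8 samples allow. When each gene was counted by its brightest retained probe set, with the p-values of the fit over all retained probe sets, 56 genes were called higher. Gpx2 ranked 22nd among them by the size of the change.

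**Figure D1:**
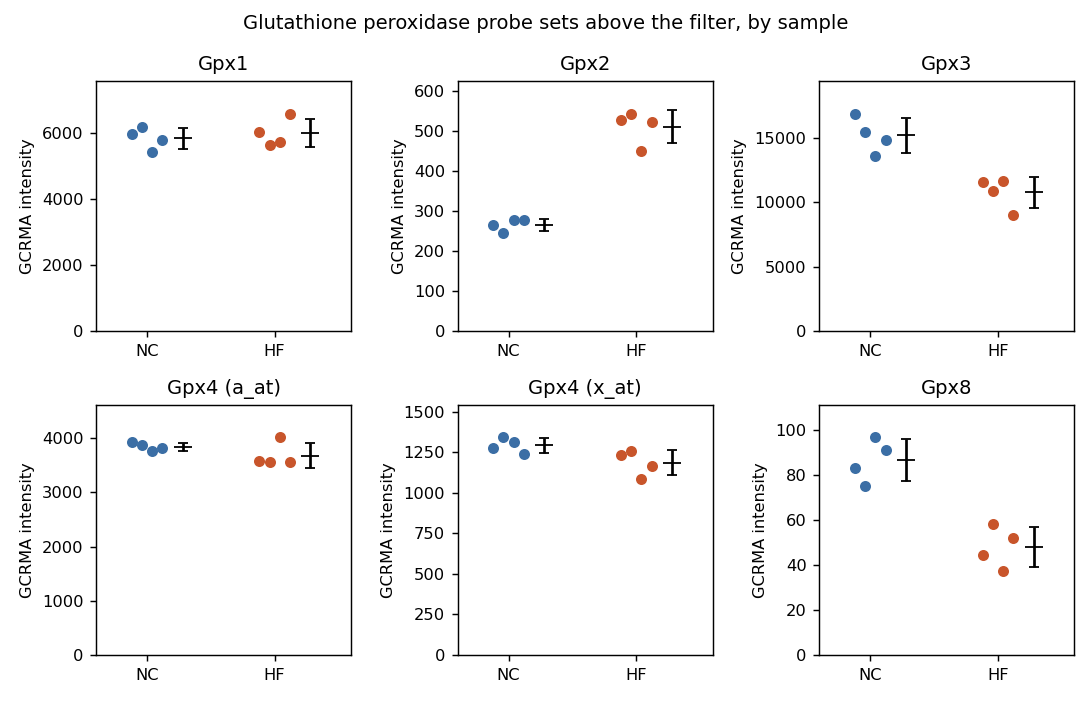
GCRMA intensity (linear axis from 0) of the 6 glutathione peroxidase probe sets above the filter in the 4 NC (blue) and 4 HF (orange) samples, in the order of the replicate numbers, with the mean and SD as black bars. The groups do not overlap for Gpx2, Gpx3 and Gpx8, and they overlap for Gpx1 and both Gpx4 probe sets. How many of all retained probe sets lack overlap was not counted, so that the lack of it carries no weight here.

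Gpx3 encodes the secreted glutathione peroxidase of plasma and extracellular fluid. Its intensity was 16846, 15425, 13548 and 14827 in NC replicates 1, 2, 4 and 5, and 11550, 10866, 11599 and 8991 in HF replicates 21, 22, 23 and 24. All HF values lay below all NC values, and replicate 24 was the lowest. Gpx3 averaged 15162 ± 1369 on NC and 10752 ± 1220 on HF (n = 4 per diet), a log2 difference of -0.50 (standard error 0.10, adjusted p = 0.0282). HF was 1.41-fold lower, which is under the limit of 1.5, and the 95% interval of the HF to NC ratio ran from 0.601 to 0.833 and spans that limit. The adjusted p lay between 0.0129 and 0.0763 over the alternatives. When the samples were scaled to equal beta cell markers, the log2 difference was -0.61 and Gpx3 was called lower. This scaling moved the median of all retained probe sets by -0.11 as well, so that relative to it the difference of Gpx3 was as before.

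Gpx8 encodes a membrane protein of the endoplasmic reticulum that takes part in peroxide removal beside the oxidases of protein folding. It had an intensity of 83.2, 75.4, 96.9 and 91.3 in NC replicates 1, 2, 4 and 5, and of 44.7, 58.2, 37.5 and 52.1 in HF replicates 21, 22, 23 and 24. No HF sample reached the NC range. Gpx8 averaged 86.7 ± 9.38 on NC and 48.1 ± 8.99 on HF (n = 4 per diet) and fell by 0.86 on the log2 scale (standard error 0.14, adjusted p = 0.0129). HF was 1.82-fold lower, with a 95% interval of the HF to NC ratio from 0.438 to 0.691. The call ended with the methods' t-test after adjustment (adjusted p = 0.0501), at an adjusted p under 0.01 and with 1 of 2 forms of SAM (significance analysis of microarrays). SAM was implemented here and may differ from the program the study used. The other form, which applies the fold limit to the rearranged samples too, called Gpx8 lower.

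Gpx1, the widely expressed enzyme of cytosol and mitochondria, had intensities from 5427 to 6169 in NC and from 5640 to 6575 in HF. The groups overlapped, with means of 5832 ± 316 and 5989 ± 421 (n = 4 per diet) and a log2 difference of 0.04 (95% interval from -0.12 to 0.20, adjusted p = 0.832). Gpx4, which reduces phospholipid hydroperoxides within membranes, was read by 2 probe sets. On the brighter the intensity ran from 3758 to 3931 in NC and from 3552 to 4015 in HF, with a log2 difference of -0.07 (95% interval from -0.20 to 0.07, adjusted p = 0.582). On the dimmer, whose name ends in x_at, it ran from 1238 to 1341 in NC and from 1087 to 1258 in HF, with a log2 difference of -0.13 (95% interval from -0.27 to 0.02, adjusted p = 0.299). HF replicate 23 was the highest HF sample on the first and the lowest on the second. Probe sets with the ending x_at can bind other transcripts, and Gpx4 has pseudogenes in RefSeq, so that the second is the less certain. For all 3 probe sets the interval excludes a change of 1.5-fold in either direction.

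Gpx5, an enzyme of the epididymis, had intensities between 5.34 and 5.54, and Gpx6, known from olfactory epithelium, between 2.97 and 3.12 in the 8 samples. Gpx7, which resides in the endoplasmic reticulum as Gpx8 does, had 6.25, 7.21, 5.53 and 5.48 in NC replicates 1, 2, 4 and 5 and between 5.00 and 5.54 in HF. These levels lie under the filter, and no change is read from them. In a fit of all 45101 probe sets the adjusted p was 0.502 for Gpx7 and 1.0 for Gpx5 and Gpx6.

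**Figure D2:**
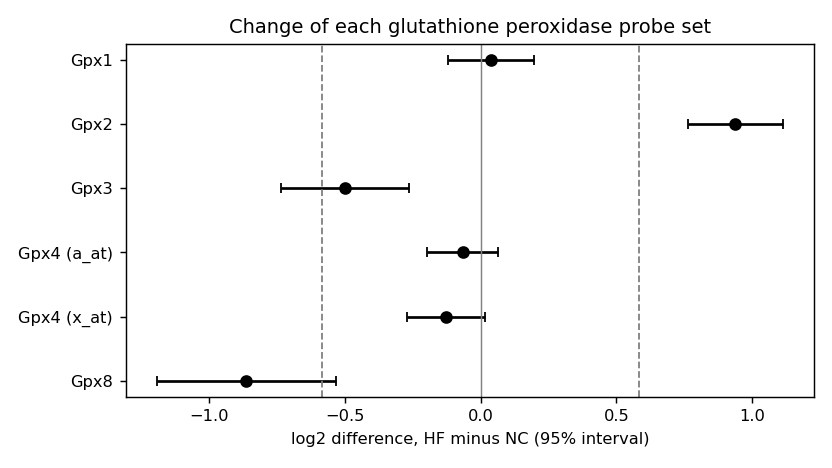
Log2 difference between HF and NC (x axis) of the 6 probe sets above the filter, with 95% intervals from limma as bars and the fold limit of 1.5 as dashed lines. Gpx2 lies beyond the limit on the upper side, with its whole interval, and the interval of Gpx8 reaches across the limit on the lower side.

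The members were then compared with each other. In each sample the log2 value of another member was subtracted from that of Gpx2, and the difference between the diets was tested in 4 such pairs with the exact two-sided permutation test, adjusted over the 4. The change of Gpx2 was larger than that of Gpx1 by 0.90 on the log2 scale (standard error 0.10), than that of Gpx4 by 1.0 (0.12), than that of Gpx3 by 1.44 (0.15) and than that of Gpx8 by 1.80 (0.10). In each pair the lowest HF value exceeded the highest NC value, with an adjusted p = 0.0286, the smallest that the arrangements allow. For Gpx3 and Gpx8 this outcome was fixed beforehand, since all their HF values lay below NC and all those of Gpx2 above. Their pairs are therefore no test apart from the changes already given. Gpx1 and Gpx4 changed little, so that their pairs largely restate the rise of Gpx2.

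The genes that supply or surround the glutathione peroxidases were taken as 9 lists with 81 measured genes, each represented by its brightest retained probe set. Of these genes 0 were called higher and 2 lower (2.47%), beside 0.455% higher and 4.29% lower among the 12299 measured genes. The methods' t-test and both forms of SAM run here also called 0 higher. At an unadjusted p under 0.05 in limma 17 of the 81 were higher (20.99%) and 12 lower (14.8%), beside 8.49% higher and 14.05% lower of all measured genes. At an adjusted p under 0.05 without the fold limit 2 were higher and 6 lower, beside 1.59% and 5.86% of all measured genes. The median log2 difference of the 81 was 0.03, and that of all measured genes was 0.00.

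Of 11 measured genes of glutathione synthesis and recycling limma called 0, with 1 higher at an unadjusted p under 0.05, and the median log2 difference was 0.05. Slc7a11, Ggt5, Ggt6 and Oplah were under the filter, and Ggt1 had no probe set annotated to it alone. Slc3a2, a subunit of the cystine carrier, averaged 5150 ± 229 on NC and 4755 ± 411 on HF, and Glrx, a glutaredoxin, had 2179 ± 277 and 2363 ± 224. Gclc, the catalytic subunit of the enzyme that starts glutathione synthesis, had a log2 difference of 0.28 (adjusted p = 0.0964) on the brighter probe set and of -0.02 on the dimmer. Gsr, glutathione reductase, had -0.15 on the brighter probe set (adjusted p = 0.315) and 0.15 on the dimmer (adjusted p = 0.369). Both genes were picked out after their values were seen. Of 6 measured genes of NADPH supply 0 were called, and 0 had an unadjusted p under 0.05. G6pdx had no probe set annotated to it alone and Me3 was under the filter, so that nothing is said of these genes. Nnt averaged 1549 ± 174 with NC and 1629 ± 170 with HF on the brighter of 2 probe sets, and of 1379 ± 41.7 and 1589 ± 130 on the other, with a log2 difference of 0.07 and of 0.20 (adjusted p = 0.758 and adjusted p = 0.142). Whether these probe sets lie in the deleted part of Nnt was not determined here. Idh1, a cytosolic source of NADPH, had 1624 ± 144 in NC and 1618 ± 113 in HF.

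The machinery that makes and inserts selenocysteine, on which Gpx1 to Gpx4 depend, had 10 measured genes, and 0 were called (2 higher and 1 lower at an unadjusted p under 0.05). Sepsecs, which makes selenocysteine on its transfer RNA, averaged 1693 ± 106 on NC and 1996 ± 137 on HF (log2 difference 0.24, adjusted p = 0.0963), and Sephs2, which makes the selenium donor, had 1655 ± 116 and 1920 ± 196 (0.21, adjusted p = 0.211). Secisbp2l, related to the protein that binds the selenocysteine insertion element, was the 1 gene of this list with an adjusted p under 0.05, in the other direction. It averaged 1803 ± 74.0 on NC and 1509 ± 72.4 on HF with no overlap (log2 difference -0.26, adjusted p = 0.0389), under the fold limit, and was picked out after its values were seen. Its dimmer probe set had a log2 difference of -0.07 (adjusted p = 0.652). Of 16 other selenoproteins 0 were called (6 higher and 1 lower at an unadjusted p under 0.05, where 8.49% and 14.05% of all measured genes were), with a median log2 difference of 0.03. Selenop, the selenium carrier of plasma, had 26053 ± 254 in NC and 26806 ± 526 in HF, and Selenok, a protein of the endoplasmic reticulum, had 17841 ± 1105 and 21453 ± 1031 (log2 difference 0.27, adjusted p = 0.0518). Dio1, a deiodinase that activates thyroid hormone, and Selenom were the 2 genes that were higher without the fold limit. Dio1 had 3177 ± 148 in NC and 4153 ± 271 in HF (log2 difference 0.39, adjusted p = 0.0142), and Selenom had 4236 ± 259 and 5378 ± 188 (0.35, adjusted p = 0.0151). In both genes the HF values lay above the NC values, and both were picked out after their values were seen.

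The other enzymes that remove peroxides had 4 measured genes, and 0 were called (1 higher and 1 lower at an unadjusted p under 0.05). Prdx1, Prdx5 and Prdx6 had no probe set annotated to them alone and were not measured. Prdx2 and Prdx4, peroxiredoxins of the cytosol and the endoplasmic reticulum, had log2 differences of 0.02 and -0.23. Cat, the gene of catalase, was picked out after its values were seen, since its 2 probe sets stood on either side of the test. The brighter had 333 ± 30.1 with NC and 241 ± 32.7 with HF, a log2 difference of -0.47 (adjusted p = 0.0504), and the dimmer had 271 ± 12.9 and 179 ± 19.1, a log2 difference of -0.61 (adjusted p = 0.00624), and was called lower.

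NRF2, the factor that switches on many genes of redox defence, is known to act on Gpx2. Of 14 measured genes in the list of NRF2 and its targets 0 were called higher and 1 lower, with a median log2 difference of -0.07. At an unadjusted p under 0.05 in limma 1 was higher and 3 were lower, beside 8.49% and 14.05% of all measured genes. The gene called lower was Gstm1, a glutathione transferase, with 1832 ± 151 on NC and 1116 ± 113 on HF (n = 4 per diet) and a log2 difference of -0.72 (standard error 0.09, adjusted p = 0.00417). Txnrd1, the cytosolic thioredoxin reductase, had 0.03 on its brightest probe set. Its dimmer probe sets had 0.24 (adjusted p = 0.0423), under the fold limit, and 0.14 (adjusted p = 0.426). Nqo1 and Hmox1, often used as reporters of NRF2, were chosen after their values were seen and had log2 differences of -0.01 and -0.02 at intensities of 20.9 ± 2.81 and 38.5 ± 8.32 in NC.

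Glutathione transferases use glutathione to conjugate other compounds, and some of them also reduce organic peroxides. Of 15 measured genes 0 were called higher and 2 lower, Gstm1 and Mgst1. At an unadjusted p under 0.05 in limma 2 were higher and 6 lower, beside 8.49% and 14.05% of all measured genes. Mgst1, the microsomal transferase, had an intensity of 523, 604, 667 and 725 in NC replicates 1, 2, 4 and 5, and of 293, 314, 191 and 203 in HF replicates 21, 22, 23 and 24. It fell by 1.35 on the log2 scale (standard error 0.18, adjusted p = 0.00568). Of the 3 retained probe sets of Gstm1 2 were called, and the third, the dimmest, had a log2 difference of -0.51 (adjusted p = 0.00786). Without the fold limit 5 of the 15 transferases were lower, beside 5.86% of all measured genes. The others were Gstm2 (log2 difference -0.57, adjusted p = 0.0320), Gstp1 (-0.38, adjusted p = 0.0187) and Gstt1 (-0.30, adjusted p = 0.0312). With the form of SAM that ended the call of Gpx8, 0 were called. Gsto2 had 90.2 ± 17.8 with NC and 193 ± 87.5 with HF, with overlap (log2 difference 1.0, adjusted p = 0.110), and without HF replicate 21 it was called higher (1.26, adjusted p = 0.0472). Gsto2, Gstm2, Gstp1 and Gstt1 were picked out after their values were seen.

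Oxidative folding in the endoplasmic reticulum, which produces peroxide near Gpx7 and Gpx8, had 7 measured genes, of which 0 were called. The log2 difference was positive in 6 (median 0.17), and 5 were higher at an unadjusted p under 0.05, beside 8.49% of all measured genes. Ero1b, the oxidase of beta cells, had 35106 ± 753 in NC and 39328 ± 1824 in HF on its brightest probe set (log2 difference 0.16, adjusted p = 0.120). Its dimmer probe sets had log2 differences of 0.42 (adjusted p = 0.00523), under the fold limit, and 0.71 (adjusted p = 0.0664), and neither was called. Pdia3, a disulfide isomerase, had 27659 ± 828 and 31076 ± 1384 on its brighter probe set (0.17, adjusted p = 0.118). Of 5 genes that act with or beside Gpx4 in lipid peroxidation 0 were called (1 lower at an unadjusted p under 0.05), with log2 differences of -0.11 for Fth1, the ferritin heavy chain, and 0.06 for Acsl4, which loads membranes with polyunsaturated fatty acids.

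**Figure D3:**
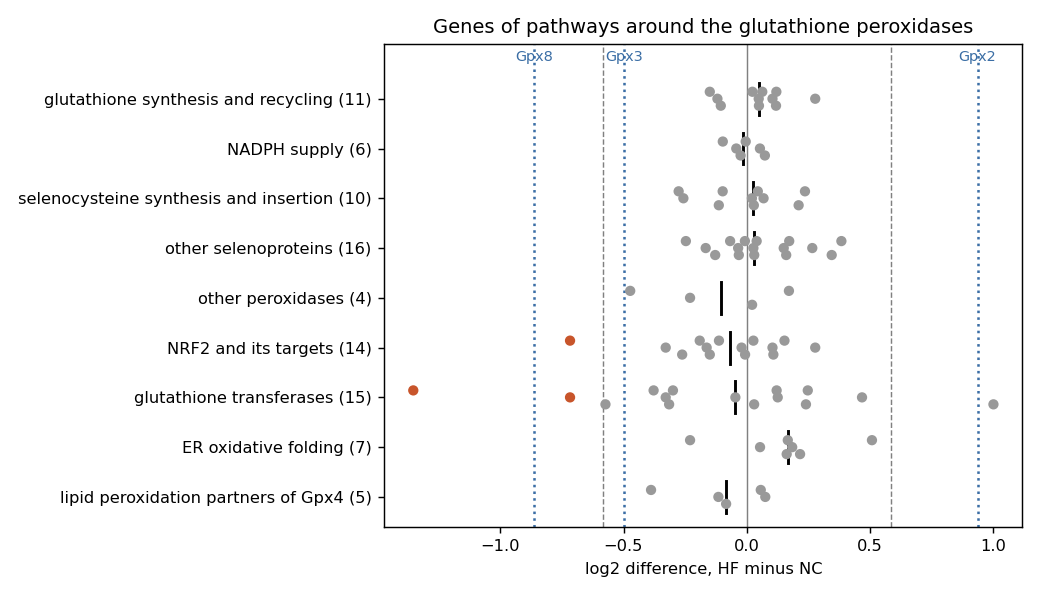
Log2 difference between HF and NC (horizontal) for the genes measured in the 9 lists, with the number of measured genes in brackets. Genes called lower are orange and others grey, black bars are medians, dashed lines mark the fold limit of 1.5, and dotted lines mark Gpx2, Gpx3 and Gpx8. The points called lower are Gstm1, which stands in 2 lists, and Mgst1.

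The markers of other cells of the islet preparation were set beside these changes. Of 9 measured beta cell markers 0 were called (median log2 difference 0.11), and these markers were bright in every sample. The sum of their intensities was 256694 to 262939 in NC and 272034 to 286451 in HF, so that each HF sum exceeded each NC sum. Such sums are set mostly by the brightest probe sets of a list and do not measure cell content. At an unadjusted p under 0.05 in limma 2 beta cell markers were higher, beside 8.49% of all measured genes. Among them was Pcsk1 (log2 difference 0.34, adjusted p = 0.0312), under the fold limit and picked out after its values were seen. The summed acinar markers ran from 351866 to 448860 in NC and from 384850 to 440240 in HF, and those of duct cells from 10337 to 12665 and from 10072 to 14053, so that the ranges of both overlapped and 0 of 8 genes were called in each. At an unadjusted p under 0.05, 0 acinar markers differed and 1 duct marker was lower. This was Krt19, with 24.3 ± 14.5 in NC and 6.24 ± 1.56 in HF (log2 difference -1.77, adjusted p = 0.0534). It was picked out after its values were seen. The part of these cells in the higher Gpx2 was not tested. Rbpjl, Mzb1 and Gfap were under the filter, and no marker of these lists was listed at 0.

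Markers of fibroblasts and stellate cells were lower together with Gpx8 and Gpx3. Of all measured genes 4.29% were called lower, the share to set beside each count of calls that follows. All 10 measured fibroblast and stellate cell genes were called lower (median log2 difference -2.43), and their sum was 13808 to 19668 in NC and 3063 to 5261 in HF. Vim and Cdh11, the genes of this list with the smallest p, had log2 differences of -1.81 and -2.67. Of 9 endothelial markers 2 were called lower, Tek and Pecam1 (list median -0.55, sum 17015 to 19722 in NC and 13013 to 14600 in HF), and of 10 macrophage markers 4, among them Cd14 and Csf1r (median -0.66, sum 4911 to 5822 and 3175 to 4104). Of 5 markers of B and plasma cells 3 were called lower, among them Jchain and Ighm (median -1.87, sum 1458 to 2641 and 261 to 850.5), and of 4 Schwann cell markers 3, among them Kcna1 and Cdh19 (median -1.66, sum 244 to 336 and 48.3 to 78.2). Of 4 alpha cell markers and 4 delta and PP cell markers 0 were called, with medians of -0.14 and -0.22 and sums of 180095 to 183478 and 139474 to 142624 in NC and of 175510 to 188146 and 119452 to 132194 in HF. At an unadjusted p under 0.05 in limma, 7 endothelial, 7 macrophage, 2 alpha cell and 3 delta and PP cell markers were lower. Of all measured genes 14.05% were. The part of the cells of these lists in the lower Gpx3 and Gpx8 was not tested. In RNA of whole islets, fewer cells of a type and less RNA per cell cannot be told apart.

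**Figure D4:**
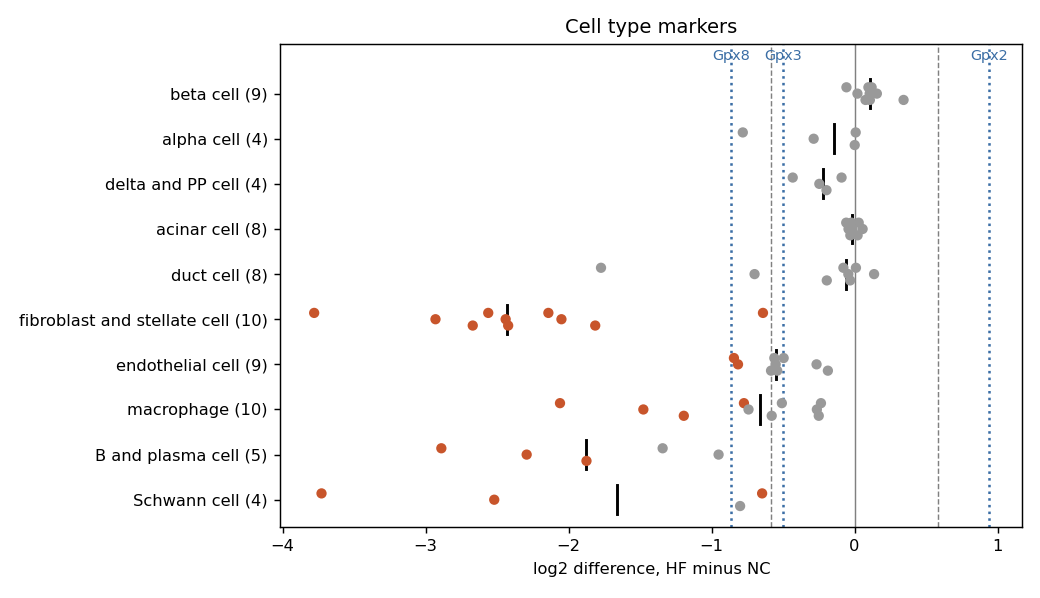
Log2 difference between HF and NC (x axis) of each measured cell type marker, with the number of measured genes in brackets. Genes called lower are orange and others grey, black bars are medians, dashed lines mark the fold limit of 1.5, and dotted lines mark Gpx2, Gpx3 and Gpx8. The fibroblast markers lie furthest to the left as a list, with a median of -2.43, and the beta cell markers lie around a median of 0.11.

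The genes most like Gpx2 over the 8 samples, by Pearson's r of log2 values among the 12299 measured genes, were Ralgapa2 (r of 0.989), Hapln4 (0.988), Clptm1l (0.979), Elapor1 (0.978) and Ptpn3 (0.975). The samples form 2 groups by diet, so that these values carry the shift between the groups, and they are given as a description. Ralgapa2, a subunit of a Ral GTPase activator, averaged 212 ± 4.24 on NC and 321 ± 26.6 on HF (n = 4 per diet), a log2 difference of 0.60 (adjusted p = 0.00304). Hapln4, a link protein of hyaluronan, had 1389 ± 45.4 and 2130 ± 82.3, a log2 difference of 0.62 (adjusted p = 0.00106). Both were called higher. Clptm1l, Elapor1 and Ptpn3 had log2 differences of 0.42, 0.31 and 0.44, under the fold limit, with an adjusted p between 0.00643 and 0.0113.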

How the data were processed

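Islet RNA of 4 NC and 4 HF samples was hybridized to Affymetrix MOE 430v2 arrays, 1 array per sample. The authors summarised the scanned arrays with GCRMA in ArrayAssist Lite 3.4, and the deposited values are an intensity per probe set on the linear scale. Their log2 was used without further normalization. Probe sets were named by the platform annotation, with symbols updated through RefSeq. Present calls were not used here, and as many probe sets as the study tested, 25617, were kept by their third-highest intensity. The diets were compared with lmFit and eBayes of limma 3.58.1 (R 4.3.3), which was tested on simulated data, in place of SAM, which is an alternative here in an implementation of its own. The other alternatives were 2 filters, 3 scalings, a pseudocount of 16, a trended robust prior, sample weights, the methods' t-test, other thresholds, 1 probe set per gene and leaving out each sample. A form of SAM that applies the fold limit to the rearranged samples too was chosen after seeing the data. The lists and the glutathione peroxidases themselves were chosen with earlier results of these data known. Named genes were all member probe sets, the called genes of each list (up to 5) or else its 2 genes of highest mean, Nnt, the 5 genes most correlated with Gpx2 and up to 2 called markers per list. No batch is given in the labels, p-values measure the spread between pools, and the number of arrays limits the precision.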

Additional observations from a re-analysis of the deposited data

Results flagged for a closer look

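On the brighter Gpx4 probe set HF replicate 23 stood apart from the other HF samples, with an intensity of 4015 where the others had 3552 to 3575, so that the gap was 0.949 of the range of the group. Of the 18 groups of 4 values examined this was the only such case, and about 1 in 20 groups is marked in this way by chance.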

How the results depend on the processing

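Gpx2 was called higher under all 22 alternatives, with a log2 difference between 0.83 and 1.0 and an adjusted p of at most 0.0136. Gpx1 and both Gpx4 probe sets were called under none (21 alternatives for the dimmer Gpx4 probe set, which has no value with 1 probe set per gene). Gpx8 (log2 difference -0.86) was not called with the methods' t-test (adjusted p = 0.0501), with SAM as implemented here or at an adjusted p under 0.01, and was called under the other 19 alternatives, among them each fit without 1 sample. Gpx3 was called lower when scaled to equal beta cell markers (-0.61) and in the absence of a fold limit (-0.50). The count of lower glutathione peroxidase probe sets was therefore 2 under these and 0 under the former settings. The 4 differences between Gpx2 and the other members passed under all 9 alternatives run for them. For Gpx3 and Gpx8 this was fixed by the opposite separation of the groups. In all 4 pairs the groups lay apart, which leaving out a sample cannot undo. The alternatives without 1 sample are therefore no further test of any pair.

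Of all retained probe sets 165 were called higher. The count was 85 with no filter, 92 with scaling on beta cell markers, 59 with the methods' t-test, 9 with SAM, 61 with SAM and the fold limit in the rearrangements, 520 with no fold limit, 45 at an adjusted p under 0.01 and 67 in a fit of 1 probe set per gene alone. It was 93 to 158 without 1 sample. The lowest counts were 93 for the fit without NC replicate 1, 101 when NC replicate 2 was left out, 109 when HF replicate 21 was, and 93 when HF replicate 24 was. The count of lower probe sets was 783, and 450 with the methods' t-test, 112 with SAM and 409 at an adjusted p under 0.01. Of the pathway genes 2 were higher and 6 lower with no fold limit, 0 were lower with SAM, and 0 to 1 were higher without 1 sample (1 without HF replicate 21). No paired analysis was possible because the diets share no replicate numbers. The cause of these shifts was not tested, other than that each threshold is stricter or looser by construction. Scaling on beta cell markers moved the median of all retained probe sets by -0.11 on the log2 scale, and the other scalings moved it by 0.01 each.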
